A study of Mus musculus with 25 samples.

Results

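The genes described are the mouse translation initiation and elongation factors, read in CD4 T cells with and without miR-150 and before and after the induction of an autoimmune disease. Members are the protein-coding rows of the count file whose symbol starts with Eif1 to Eif6 or with Eef1 or Eef2, with the kinase genes Eif2ak2 and Eef2k left out. In the count file 75 of 46078 gene rows matched the symbol rule. Of these, 8 were not protein coding and 2 were left out by name, which left 65 members. The rule goes by symbol, so it also takes in kinases of eIF2, proteins that bind eIF4E and methyltransferases of the elongation factors, which act on translation factors but are not factors themselves.

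Eukaryotic translation begins when eIF2 brings the initiator tRNA to the small ribosomal subunit, with eIF1, eIF1A, eIF3 and eIF5 helping it to find the start codon on an mRNA that the eIF4F complex holds by its cap. The elongation factor eEF1A then delivers each aminoacyl-tRNA, the eEF1B subunits recharge eEF1A with GTP, and eEF2 moves the ribosome along by a codon. Quiescent T cells make little protein, and activation through the T cell receptor raises protein synthesis, in part through eIF4E and its binding proteins. Many mRNAs for ribosomal proteins and elongation factors start with a run of pyrimidines, the terminal oligopyrimidine tract through which mTOR controls their translation.

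The study measured RNA in CD4 T cells sorted from mice of strain C57BL/6NTac, in 25 libraries. Wild-type mice, mice lacking miR-150 (knock-out) and mice with a miR-150 knock-in were each studied naive and at day 7 after induction of experimental autoimmune encephalomyelitis (EAE), a T cell-driven disease of the central nervous system. The groups hold 4 libraries each, except wild-type at day 7 with 5. The labels do not say which agent was given for induction, what the knock-in allele carries or drives, or whether each library came from its own mouse, so p-values measure the spread between these libraries.

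Libraries held between 6024043 and 49489134 counts (median 16312725), and knock-out day 7 replicate 3 was the deepest. The gene of miR-150 itself, Mir150, had 0 counts in the knock-out libraries and 9.08 to 29.2 CPM in the wild-type and knock-in ones, where CPM is a gene's count relative to the library total after TMM scaling. CD4 T cell markers (Cd3d, Cd3e, Cd3g, Trac, Cd4) summed to between 1442 and 1705 CPM in every library, and none of these 5 genes was called in the comparison of day 7 with naive cells over the genotypes. Marker sums of B cells stayed at or below 16.7 CPM, of myeloid cells at or below 18.0 CPM and of erythroid cells at or below 8.63 CPM. Plasma cell markers summed to 18.0 to 24.6 CPM in naive and 23.1 to 53.8 CPM in day 7 libraries. The highest sum was that of knock-in day 7 replicate 4, and the next was 32.5 CPM in knock-in day 7 replicate 3. Over the genotypes 2 of 3 were called higher at day 7 (Jchain and Xbp1). The third, Sdc1, had a log2 change of -0.63 and was not called. Markers of CD8, NK and gamma-delta T cells summed to 21.8 to 42.9 CPM and then 16.4 to 23.1 CPM, and 2 of the 5 tested were called lower (Nkg7 and Trdc). The 10 dividing-cell markers were all higher at day 7 in the mean of the genotypes and 6 of them were called, with sums of 193 to 244 CPM in wild-type naive and 170 to 334 CPM in wild-type day 7 libraries. In bulk samples such as these, fewer cells of a type and less RNA per cell cannot be told apart.

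Of the 65 members, 61 passed the filter on low counts and were tested, and 4 did not. Eif4e1b, which encodes a cap-binding protein of the oocyte, had 0 counts in all 25 libraries. Eef1a2, the muscle and neuron form of eEF1A, had 2 counts in all, and Eif2s3y, the Y-linked copy of the eIF2 gamma subunit, also had 2. Eef1akmt3 had 14 counts, with 0 in 18 of the libraries. Of the partners of these genes, the X-linked Eif2s3x averaged 72.6 CPM and Eef1a1 averaged 3428 CPM.

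The starts of the genes are shown first, because genes of elongation factors and ribosomal proteins are known for their pyrimidine-rich 5′ ends. Each line is a window of 30 bases, from 5 bases before to 25 bases after the annotated start, read 5′ to 3′ on the gene's strand from RefSeq on build GRCm38.p6. Capitals mark the longest unbroken run of C and T. All 7 genes rose by day 7 over the genotypes. Within these windows Eef1a1, Eef2, Eif3f and Eif3k carry long runs, and Eef1b2, Eif1 and Eif2s2 do not. The annotated starts were not checked against where transcription begins in these cells. The windows therefore do not show whether an mRNA starts with such a run.
Eef1a1: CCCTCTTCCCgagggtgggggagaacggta
Eef2: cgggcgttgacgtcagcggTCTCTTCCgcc
Eef1b2: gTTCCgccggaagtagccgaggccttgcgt
Eif3f: gCTCTCTCTCTTTCTCggcaagatggcttc
Eif3k: gcgctggtgctgaaagcgCCTTTCCCTTTg
Eif1: cacaggggcggCTatataagtgaatacagg
Eif2s2: tggCTTTactgtacgcctgcgctttggcga
The windows lie at chr9:78481700-78481729 on the minus strand for Eef1a1, chr10:81176626-81176655 on the plus strand for Eef2 and chr1:63176826-63176855 on the plus strand for Eef1b2. Those of the eIF3 subunits are chr7:108934410-108934439 on the plus strand for Eif3f and chr7:28981864-28981893 on the minus strand for Eif3k. The window of Eif1 is chr11:100319944-100319973 on the plus strand and that of Eif2s2 is chr2:154892882-154892911 on the minus strand.

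RefSeq entries matched 49 of the 65 members. A run of at least 7 pyrimidines in this window on the gene's own strand, a length chosen after the sequences were seen, was present in 15 of those 49 (30.6%) and in 5057 of 27025 genes with an entry (18.7%). Where a symbol had several entries, its longest run was counted. Among the members that rose by day 7 over the genotypes, 5 of the 9 with an entry had one (55.6%). They were Eef1a1, Eef2, Eif3f, Eif3k and Eif4b, the last with a run of exactly 7. Of the other 40 members 10 had one (25%). The risers were picked by their calls in these same data, and those of Eef1a1, Eif3f and Eif4b were lost with library totals alone. Whether the run goes with the rise was not tested. Of the cytosolic ribosomal protein genes, 32 of 65 with an entry had such a run (49.2%). The run is a description of these letters, not of the 5′ ends of the mRNAs. In Eef1a1 and Eif3f it spans the annotated start, whereas in Eef2 and Eif3k it lies further into the window, and Eif1 has a longest run of 2.

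Per kilobase of exon, the elongation factor genes Eef1a1, Eef2, Eef1b2 and Eef1g stood above all initiation factor genes. The length used joins all annotated exons of a gene, so it can exceed that of the transcripts present and lower the value. Compared per kilobase of exon, to allow for length, mean levels over all 25 libraries were 1375 CPM per kilobase for Eef1a1 and 485 for Eef2. The next in order were Eef1b2 and Eef1g, subunits of the exchange factor eEF1B, at 190 and 128 CPM per kilobase. The eEF1B delta subunit Eef1d was lower on the same scale at 16.6, and Eef1e1, a multi-synthetase component, lower again at 2.09. The exon length of Eef1d was 6488 bases against 2600 for Eef1g, and before division by length they averaged 107.5 and 333.6 CPM. The highest initiation factors were the eIF3 subunits Eif3h (84.4), Eif3a (78.4) and Eif3c (77.7), whose ranges over libraries overlapped. Eif4b at 67.0, Eif1 at 66.5 and the helicase Eif4a2 at 65.2 followed them. Of the eIF2 subunits, Eif2s3x stood at 19.0, Eif2s2 at 12.8 and Eif2s1 at 12.2 CPM per kilobase, so the alpha and beta subunits differed by less than their ranges over libraries.

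Paralogs were read at unequal levels per kilobase. Eif4a2 was 65.2 and Eif4a1 55.4 CPM per kilobase, whereas Eif5a was 46.6 and Eif5a2 0.989. Eif1ax was 4.92 and Eif1a 3.86, and Eif3j1 was 8.17 against 0.743 for Eif3j2. Eif4a1 varied least among members, with its highest library only 1.15 times its lowest, and Eif4g3 was next at 1.17. The translation repressor gene Eif4ebp1 varied most of those seen in every library, from 0.619 to 4.64 CPM, a ratio of 7.497. Because the way reads shared by near-identical copies and pseudogenes were counted is not given in the sources used here, levels of Eef1a1, Eif1a, Eif1ax, Eif3j1 and Eif3j2 are uncertain in this respect.

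**Figure D1:**
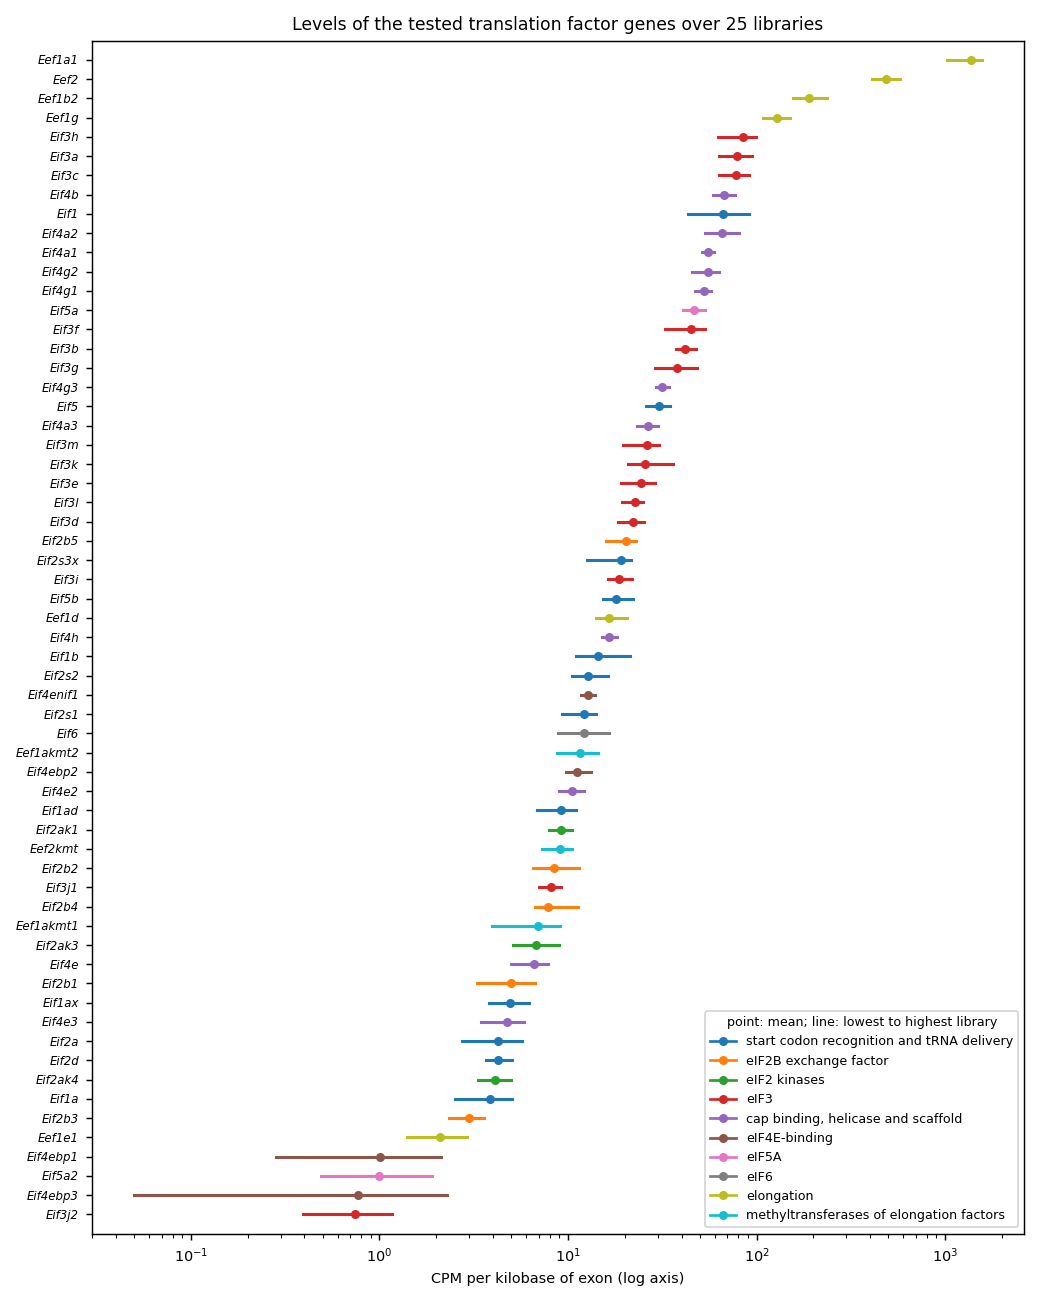
Levels of the 61 tested members in CPM per kilobase of exon on a log axis, with a point for the mean over 25 libraries, a line from the lowest to the highest library and colours for the role. Elongation factors Eef1a1 (1375), Eef2 (485), Eef1b2 (190) and Eef1g (128) lead, and the line of Eif4ebp3 is drawn from 0.05 because its lowest library was 0.

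The first comparison asked how naive and day 7 cells differ. In wild-type cells 3 of 61 members were higher at day 7 (edgeR quasi-likelihood test, Benjamini-Hochberg adjusted over 14703 genes) and 0 lower. They were Eif1, which guards start codon choice, and the elongation factors Eef1b2 and Eef2. Over all genes tested the share called was 2.14%, of which 1.18% higher. In knock-in cells 2 members were higher, Eif1 and Eef1b2, beside 2.02% of all genes, of which 1.01% higher. In knock-out cells edgeR called 0 of 61, beside 0.408% of all genes, while 9 members had an unadjusted p under 0.05 (14.8%, all genes 12.8%). DESeq2 called 3 there, Eef1a1, Eif1 and Eif3h, beside 1.71% of the 12448 genes to which it gave an adjusted p. These differences in count between genotypes are not differences in response, which were tested separately further on.

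Averaged over the 3 genotypes, which uses all 25 libraries, 12 members were higher at day 7 and 1 was lower. That is 21.3% of the 61, beside 11.2% of all genes (6.16% higher and 5.06% lower). The 12 that rose are Eif1, Eif2s2, Eif3f, Eif3h, Eif3k, Eif4b, Eif5a, Eef1a1, Eef1b2, Eef1d, Eef1g and Eef2, and Eif4e2 fell. The median log2 change of the 61 tested members was 0.05 and of all genes 0.00, with 41 members above 0 (67.2%, all genes 49%). TMM scaling gave naive libraries factors that were mostly above 1 and day 7 libraries factors that were mostly below 1. With library totals alone, added after the results were seen, 4 members were higher (Eif1, Eef1b2, Eef2 and Eif3k) and 2 lower (Eif4e2 and Eif2d). That is 9.84% of members beside 14% of all genes, so with this scaling the share of members called lay below that of all genes. The median of all genes was then -0.06 in the mean of the genotypes and -0.10 in wild-type, and that of members -0.02 and -0.05.

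Most elongation factor genes rose. Of 6 tested, 5 were higher at day 7 over the genotypes, beside 6.16% of all genes. The exception was Eef1e1 at a log2 change of 0.01. The summed level of the elongation factor genes ran from 5321 to 5983 CPM in wild-type naive and from 6173 to 6636 CPM in wild-type day 7 libraries. The sum went from between 4752 and 5448 to between 5517 and 6196 CPM in knock-out cells, and from between 5859 and 6131 to between 6633 and 6897 CPM in knock-in cells. On this TMM scale the 2 stages did not overlap within any of the 3 genotypes. As an unscaled share of the library, the sum averaged 0.590% ± 0.034 (SD, n = 4) in wild-type naive and 0.627% ± 0.0077 (SD, n = 5) in wild-type day 7 libraries. The means were 0.510% and 0.578% in knock-out and 0.611% and 0.652% in knock-in cells. On this unscaled measure the stages overlapped in all 3 genotypes, at 0.552% to 0.633% and 0.621% to 0.6405% in wild-type, 0.464% to 0.5415% and 0.515% to 0.625% in knock-out, and 0.5998% to 0.6295% and 0.623% to 0.666% in knock-in.

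Eef1b2, a nucleotide exchange subunit of eEF1B (ENSMUSG00000025967, chromosome 1), was read at 476, 426, 419 and 441 CPM in wild-type naive libraries and at 599, 461, 563, 516 and 565 CPM at day 7. In knock-in cells it was 438, 477, 469 and 446 CPM and then 576, 582, 548 and 556 CPM. In knock-out cells it was 422, 416, 411 and 398 CPM and then 496, 440, 469 and 430 CPM. The stages did not overlap in knock-out and knock-in cells, and in wild-type a single day 7 library lay inside the naive range. The log2 changes were 0.30 ± 0.06 (SE; edgeR adjusted p 0.00692) in wild-type, 0.31 ± 0.06 (adjusted p 0.00918) in knock-in and 0.25 ± 0.04 over the genotypes (adjusted p 3.02e-05). The wild-type call was lost with library totals alone (edgeR adjusted p 0.0618).

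Eef1a1, the tRNA carrier and the most abundant member, was 3486, 2965, 3234 and 3498 CPM in wild-type naive and 3622, 3609, 3689, 3787 and 3770 CPM in wild-type day 7 libraries. In knock-out cells it was 3107, 3110, 2541 and 2709 CPM and then 3550, 3515, 3182 and 3253 CPM. In knock-in cells it was 3483, 3461, 3560 and 3356 CPM and then 3914, 3655, 3907 and 3744 CPM. Its day 7 libraries lay above its naive libraries in all 3 genotypes, the one member of which that was true. The log2 change over the genotypes was 0.18 ± 0.03 (edgeR adjusted p 0.000973), and with library totals alone it was 0.12 with an adjusted p of 0.0564.

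Eef2, the translocase, was 1557, 1502, 1497 and 1431 CPM in wild-type naive and 1837, 1648, 1768, 1600 and 1817 CPM in wild-type day 7 libraries, with no overlap. In knock-in cells the stages also did not overlap, and in knock-out cells the naive and day 7 ranges, 1359 to 1507 and 1405 to 1676 CPM, did. The log2 change was 0.21 ± 0.06 in wild-type (edgeR adjusted p 0.0398) and 0.16 ± 0.03 over the genotypes (adjusted p 0.00152). The wild-type call was lost on leaving out any of 7 of the 9 libraries, all but wild-type day 7 replicates 2 and 4, with adjusted p-values of 0.0637 to 0.136. A fit of the 2 wild-type groups alone ended it too (0.0672), as did a block for every 4 library numbers in sequence (0.0952) and scaling by library totals alone (0.253). In the blocked fit the last library, wild-type day 7 replicate 5, was alone in its block and so did not inform the change. Leaving out that library by itself also ended the call (edgeR adjusted p 0.0883). The call over the genotypes was kept in all alternatives run.

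Eef1g and Eef1d, further subunits of eEF1B, changed by a log2 of 0.14 ± 0.04 and 0.19 ± 0.05 over the genotypes (edgeR adjusted p 0.0150 and 0.0143). Eef1g had a median of 317 CPM in the 12 naive libraries and 353 CPM in the 13 day 7 libraries, of which 10 lay above the highest naive library. For Eef1d these medians were 98.2 and 115 CPM, and 7 of 13 lay above the highest naive library. Both calls were lost with library totals alone (edgeR adjusted p 0.155 for Eef1g and 0.0564 for Eef1d). That of Eef1d was also lost with limma voom (adjusted p 0.0506).

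Among factors for start codon recognition and tRNA delivery, 2 of 12 rose over the genotypes and 0 fell (all genes 6.16% and 5.06%). Eif1 (ENSMUSG00000035530, chromosome 11), a small protein that keeps the scanning ribosome from settling on a wrong start, had the widest change of all called members. It was 108, 93.6, 120 and 119 CPM in wild-type naive and 172, 180, 160, 188 and 181 CPM in wild-type day 7 libraries. In knock-in cells it was 133, 121, 129 and 120 CPM and then 164, 154, 191 and 168 CPM. These groups did not overlap. In knock-out cells it was 116, 122, 90.6 and 105 CPM and then 134, 140, 118 and 162 CPM, where the lowest day 7 library lay inside the naive range.

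The log2 change of Eif1 was 0.68 ± 0.09 in wild-type (edgeR adjusted p 4.07e-05), 0.43 ± 0.09 in knock-in (adjusted p 0.0134) and 0.35 in knock-out (adjusted p 0.0874). Over the genotypes it was 0.48 ± 0.05 (adjusted p 5.21e-07), a call kept in all alternatives run. Without knock-in naive replicate 2 or 4 the knock-in call was lost (edgeR adjusted p 0.0525 and 0.0531), as it was with library totals alone (0.0878). Its paralog Eif1b was not called: its log2 change over the genotypes was -0.01 ± 0.09, and its naive median of 15.5 CPM compares with 14.0 CPM at day 7.

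Eif2s2, the beta subunit of eIF2, had a naive median of 82.7 CPM and a day 7 median of 93.9 CPM, a log2 change of 0.15 ± 0.05 over the genotypes (edgeR adjusted p 0.0376). The stages did not overlap in knock-in cells only. The call was lost on leaving out any of 8 single libraries, with edgeR adjusted p-values from 0.0506 to 0.0847, with a block for every 4 library numbers in sequence (0.0749) and with library totals alone (0.28). The libraries were wild-type naive replicates 2 and 3, knock-in naive replicates 1 and 4, knock-in day 7 replicate 1, knock-out naive replicate 4 and knock-out day 7 replicates 2 and 4. The alpha and gamma subunits, Eif2s1 and Eif2s3x, had log2 changes of -0.05 ± 0.05 and 0.03 ± 0.06 and were not called. Eif5b, which joins the subunits, had medians of 174 CPM at both stages.

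None of the 5 subunits of eIF2B, the factor that reloads eIF2 with GTP, was called over the genotypes (all genes 11.2%). The median log2 change of these subunits was 0.05. Nor was any of the 3 eIF2 kinases among the members, Eif2ak1 (haem-regulated), Eif2ak3 (PERK, of the endoplasmic reticulum) and Eif2ak4 (GCN2, which senses uncharged tRNA), whose changes were -0.01, 0.09 and 0.02.

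Of 14 members of eIF3, the scaffold that binds the small subunit, 3 rose over the genotypes and 0 fell (all genes 6.16% and 5.06%). Eif3k had a naive median of 62.1 CPM and a day 7 median of 72.2 CPM, and 10 of 13 day 7 libraries lay above the highest naive one. Its log2 change was 0.27 ± 0.06 (edgeR adjusted p 0.00510), kept in all alternatives run. Eif3h went from a median of 128 to 143 CPM, with 10 of 13 day 7 libraries above the highest naive one, and Eif3f from 123 to 141 CPM, with 7 of 13. Their log2 changes were 0.19 ± 0.04 and 0.18 ± 0.05 (edgeR adjusted p 0.00384 and 0.0130). With library totals alone the calls of Eif3h and Eif3f were lost (edgeR adjusted p 0.0528 and 0.0882). The more abundant subunits Eif3a and Eif3c were not called, at -0.05 ± 0.05 and -0.03 ± 0.05.

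In the class of cap binding, helicase and scaffold genes, 1 of 11 rose and 1 fell (all genes 6.16% and 5.06%). With 11 genes, 1 call each way lies near the shares of all genes. Eif4b, which stimulates the eIF4A helicase, had a naive median of 279.5 CPM and a day 7 median of 318 CPM. Its log2 change was 0.16 ± 0.04 (edgeR adjusted p 0.00818), a call lost with library totals alone (edgeR adjusted p 0.0658). Eif4e2, a cap-binding relative of eIF4E that represses translation, was the one member that fell. It was 82.4, 83.1, 77.2 and 78.0 CPM in wild-type naive and 75.9, 75.3, 74.3, 69.4 and 74.9 CPM in wild-type day 7 libraries. In knock-out cells it was 79.5, 85.6, 90.9 and 90.8 CPM and then 72.9, 72.3, 78.7 and 75.3 CPM, and neither genotype's groups overlapped. In knock-in cells the groups did overlap, at 77.5 to 84.0 and 67.5 to 79.9 CPM.

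The log2 change of Eif4e2 over the genotypes was -0.14 ± 0.04 (edgeR adjusted p 0.0107), and all 13 day 7 libraries lay below the naive median of 81.8 CPM. Without the filter on low counts it was not called (edgeR adjusted p 0.0561). Eif4e itself, the cap-binding subunit of eIF4F, had a log2 change of 0.02 ± 0.06 and medians of 40.1 and 40.3 CPM. Its scaffold genes Eif4g1 and Eif4g3 had naive medians of 384 and 350 CPM against 387 and 343 CPM at day 7. The helicase Eif4a1 was 236 CPM at the naive median and 246 CPM at day 7 (log2 change 0.06 ± 0.03, edgeR adjusted p 0.185).

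None of the 4 genes for eIF4E-binding proteins was called over the genotypes (all genes 11.2%). Eif4ebp1 had the widest fitted change among them, 0.47 ± 0.23 over the genotypes (edgeR adjusted p 0.214). Its wild-type values were 2.20, 1.88, 1.18 and 0.619 CPM in naive and 1.17 to 4.39 CPM in day 7 libraries, so the groups overlapped. Eif4ebp2 was the more abundant at 64.9 CPM on average. Eif5a, which helps the ribosome past difficult stretches, rose by 0.14 ± 0.04 on the log2 scale (edgeR adjusted p 0.0153), from a naive median of 103 CPM to 115 CPM, and its paralog Eif5a2 was at -0.05 ± 0.18. That call was lost without the low-count filter (0.0661) and with library totals alone (edgeR adjusted p 0.178). None of the 3 tested methyltransferases was called (all genes 11.2%), and all 3 had changes below 0, with a median of -0.10.

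**Figure D2:**
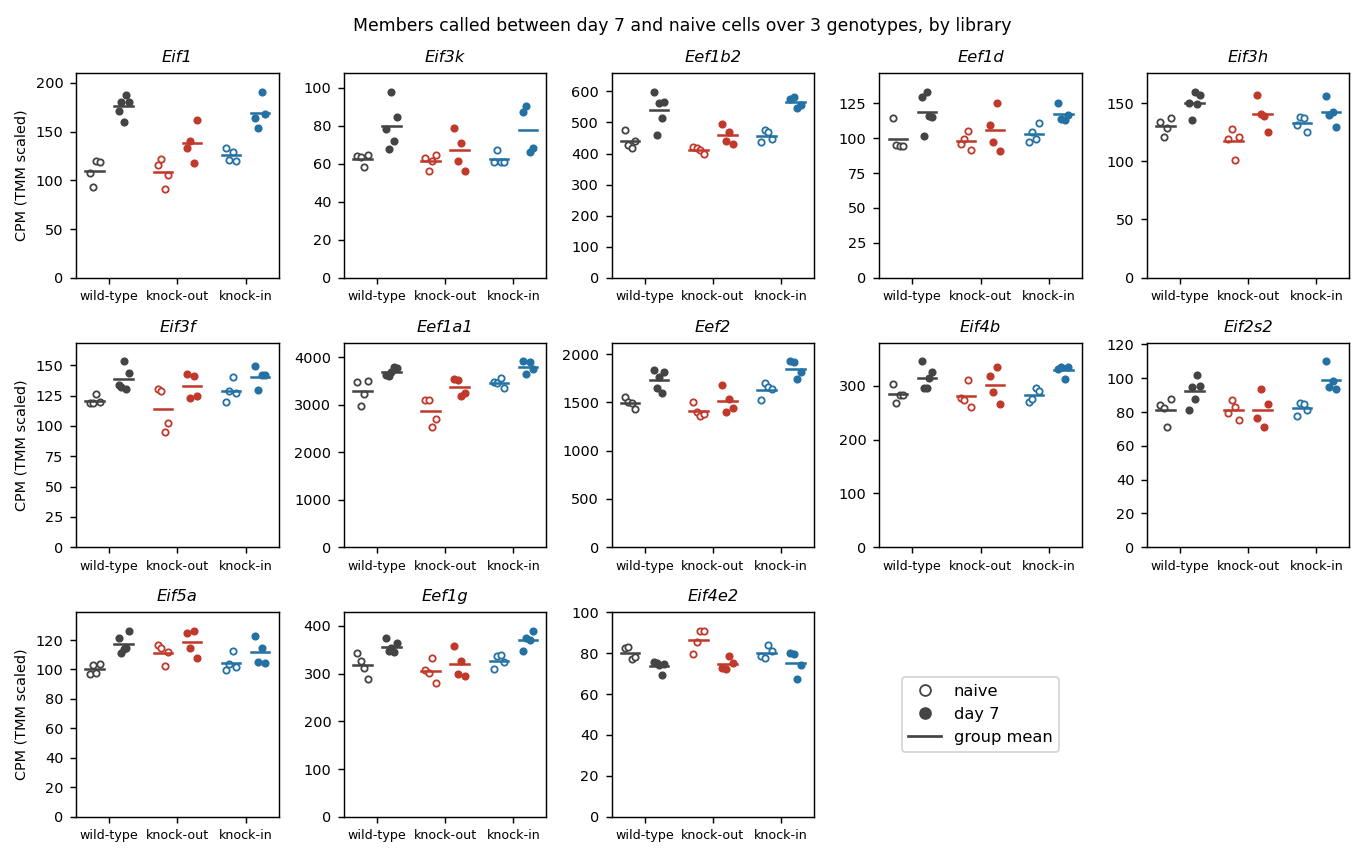
CPM of the 13 called members in each library, by genotype, with open points for naive cells, filled points for day 7 and bars for group means, and every axis starting at 0. Eif1 shows the widest step, from 93.6 to 120 CPM in wild-type naive to 160 to 188 CPM at day 7, and Eif4e2 is the only one of the 13 that fell.

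**Figure D3:**
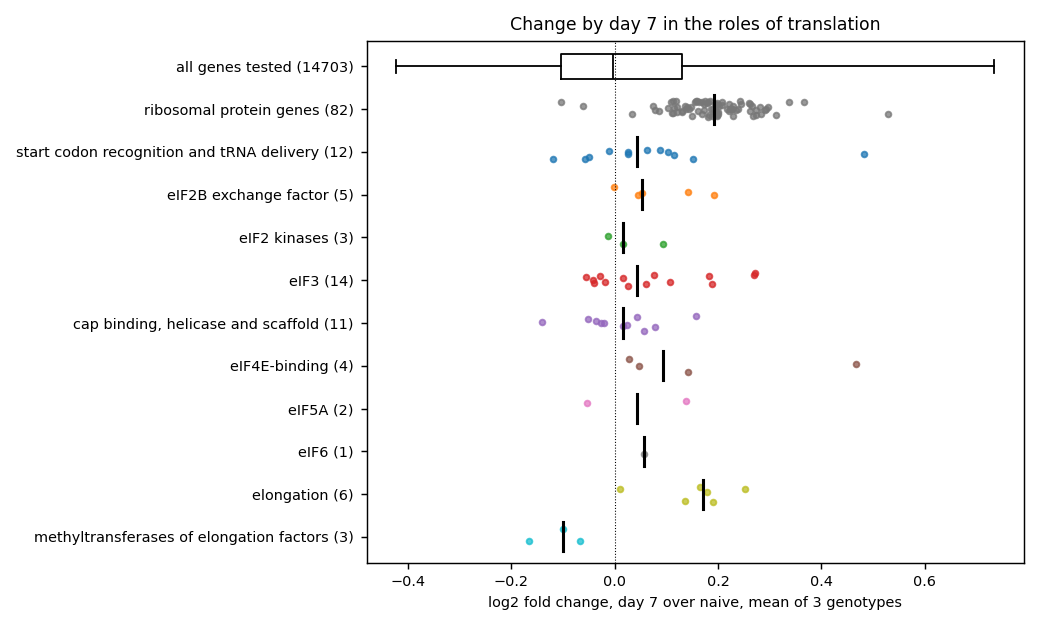
Log2 change by day 7 over the 3 genotypes for each role, with a point per gene and a bar at the median, and the number of genes tested in parentheses; the box for all genes spans the quartiles and its whiskers the 5th to 95th percentiles. Elongation factors (median 0.17) and ribosomal protein genes (median 0.19) sit to the right of all genes (median 0.00).

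Beside the factors, 61 of 82 tested cytosolic ribosomal protein genes were higher at day 7 over the genotypes and 0 lower, with a median log2 change of 0.19. Of all genes 6.16% were higher and 5.06% lower. In wild-type cells 19 of 82 were called higher (all genes 1.18%), in knock-in cells 6 (1.01%) and in knock-out cells 0 (0.211%). As an unscaled share of the library, their sum overlapped between stages in wild-type (3.60% to 4.16% and 3.885% to 4.675%). It also overlapped in knock-out (3.19% to 3.615% and 3.183% to 3.89%). In knock-in it did not (3.82% to 4.01% and 4.05% to 4.465%). Of 33 other genes of translation and its control that were matched and tested, 3 were higher and 1 lower over the genotypes. The share called of this list lay near that of all genes, 11.2%. The 3 that rose were Ppp1r15a, Atf4 and Ddit3. Ppp1r15a, the eIF2 phosphatase subunit GADD34, had a log2 change of 2.04. Atf4, whose mRNA is translated when eIF2 is phosphorylated, was at 0.56 and Ddit3 at 0.26 (edgeR adjusted p 0.0499). Pdcd4, an inhibitor of eIF4A, fell, at -0.31. Atf4 was 51.3 ± 8.6 CPM (SD, n = 4) in wild-type naive and 89.7 ± 11.1 CPM (SD, n = 5) in wild-type day 7 libraries. Eef2k and Eif2ak2, the kinase genes that the rule leaves out, were not called, at 0.21 and -0.32 (edgeR adjusted p 0.270 and 0.101). In the called markers, 6 of dividing and 2 of plasma cells rose and 2 of CD8, NK and gamma-delta T cells fell in the same comparison. The share of counts on ribosomal RNA and similar genes ran from 15.1% to 18.2% in naive and from 16.6% to 21.15% in day 7 libraries, with the highest in knock-out day 7 replicate 3. The part of these in the rise of the factors was not tested.

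Counting groups whose TMM-scaled libraries do not overlap, 8 members lay wholly higher and 1 wholly lower at day 7 in wild-type cells, beside 2.94% and 2.92% of all genes. In knock-out cells this was true of 2 higher (Eef1a1 and Eef1b2) and 1 lower (Eif4e2), beside 2.43% and 2.64%. In knock-in cells it was true of 8 higher and 1 lower (Eif2s1), beside 4.7% and 6.33%. By the sign of the change alone, 21 members were positive in all 3 genotypes, 20 in 2 of them, 14 in 1 and 6 in none, and 21.1% of all genes were positive in all 3.

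**Figure D4:**
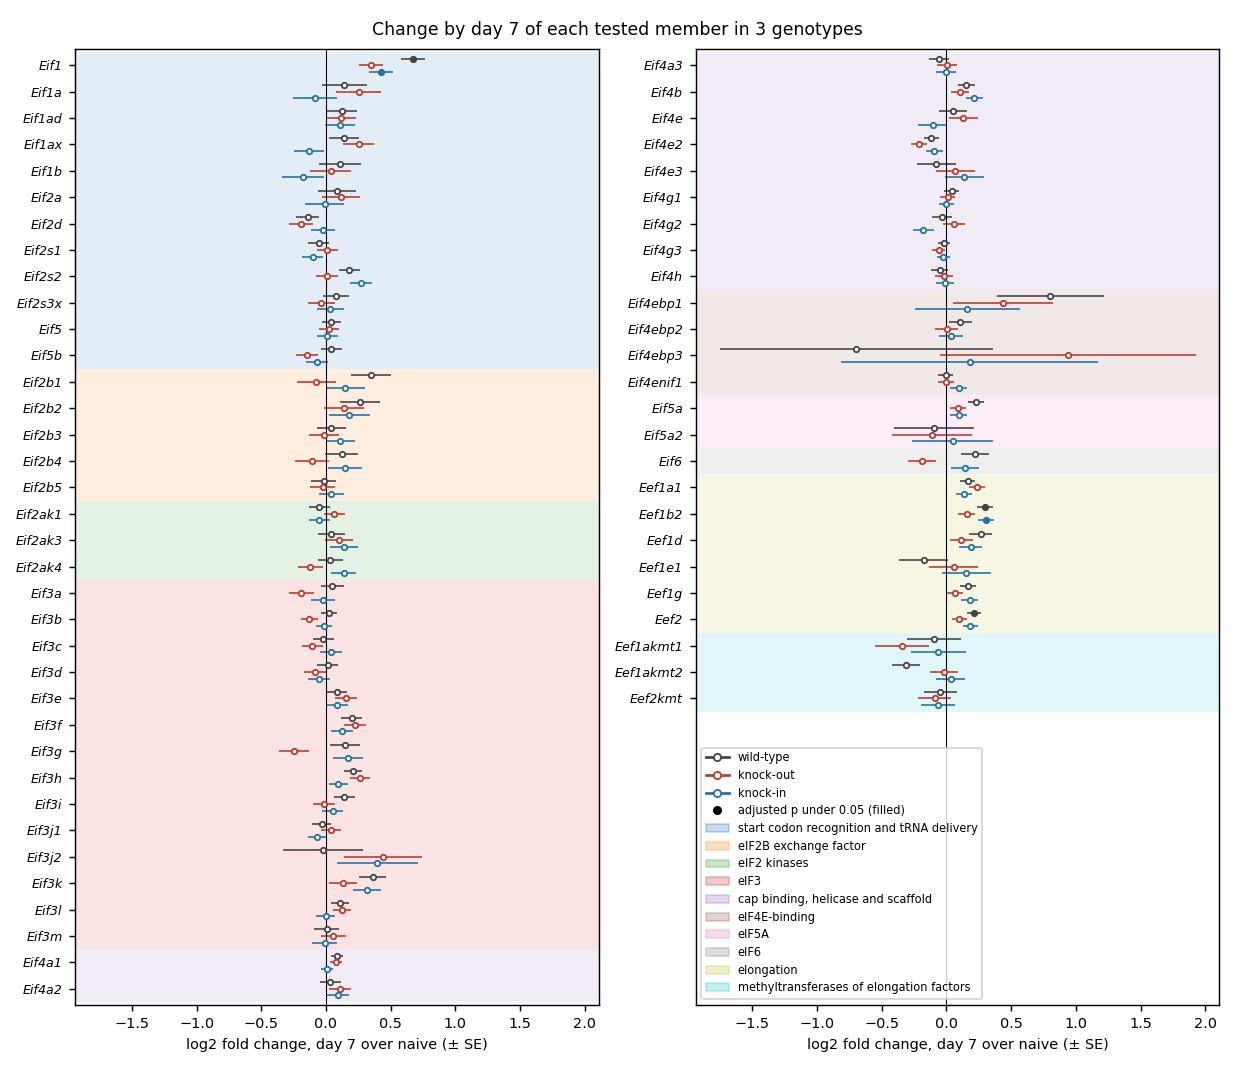
Log2 fold change by day 7 with its standard error for each of the 61 tested members in wild-type, knock-out and knock-in cells, grouped by role and filled where the edgeR adjusted p was under 0.05. The filled points are Eif1 and Eef1b2 in wild-type and knock-in and Eef2 in wild-type, and Eif4ebp3 has the widest errors.

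The second comparison asked whether the genotypes differ at a given stage, and edgeR called no member. In naive cells edgeR called 0 of 61 between knock-out and wild-type (0.0204% of all genes), with 5 at an unadjusted p under 0.05 (8.2%, all genes 7.55%). It called 0 between knock-in and wild-type (0.0136% of all genes), with 1 at that level, Eef2 (1.64%, all genes 2.26%). At day 7 it called 0 between knock-out and wild-type (0.0476% of all genes), with 7 at an unadjusted p under 0.05 (11.5%, all genes 9.45%), and 0 between knock-in and wild-type (0% of all genes), with 1, Eef1e1 (1.64%, all genes 4.65%). DESeq2 called 0 members in both naive comparisons and in that of knock-in with wild-type at day 7. Between knock-out and wild-type at day 7, DESeq2 called 3 members lower (Eif1, Eef1b2 and Eef2), beside 81 of the 9568 genes to which it gave an adjusted p (0.847%), and edgeR without the low-count filter called 2 lower (Eif1 and Eef1b2), beside 1.17% of all genes.

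The smallest p-values at day 7 between knock-out and wild-type were of those same genes. Eif1 was 134, 140, 118 and 162 CPM in knock-out against 172, 180, 160, 188 and 181 CPM in wild-type, a log2 difference of -0.35 ± 0.09 (edgeR adjusted p 0.153). A single knock-out library, at 162 CPM, lay above the lowest wild-type one. Eef1b2 had a difference of -0.24 ± 0.06 (edgeR adjusted p 0.153), which passed the threshold without wild-type day 7 replicate 2 (0.0308), and Eef2 one of -0.20 ± 0.06 (0.192). Eef1a1 was the one member whose knock-out day 7 libraries all lay below the wild-type ones (0.945% of all genes), with a difference of -0.13 ± 0.06 (edgeR adjusted p 0.455). It was also lower in naive knock-out cells, at -0.20 ± 0.06 (edgeR adjusted p 0.405). Lower values in knock-out were not particular to these factors. Of 82 tested cytosolic ribosomal protein genes, 80 were below 0 at day 7 (all genes 7408 of 14703). In naive cells 73 of the 82 were (all genes 7221). Their median log2 differences were -0.24 and -0.10, and at each stage edgeR called 0 of them lower and 1 higher.

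In naive cells Eif6, which keeps the large subunit from joining too early, was 34.5, 33.7, 44.4 and 33.7 CPM in knock-out and 30.5, 30.5, 27.5 and 26.9 CPM in wild-type libraries. The groups did not overlap, as for 2.54% of all genes on the higher side, and the log2 difference of 0.34 ± 0.11 did not pass the threshold (edgeR adjusted p 0.472). At day 7 Eif6 was 36.6, 23.8, 34.8 and 32.1 CPM in knock-out and 31.2 to 35.95 CPM in wild-type libraries, and the groups overlapped. Naive Eif1 was higher in every knock-in library, at 120 to 133 CPM, than in wild-type ones, at 93.6 to 120 CPM (1.82% of all genes), and was not called.

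The third comparison asked whether the day 7 change itself differed between genotypes, and edgeR called 0 of 61 members for knock-out and 0 for knock-in against wild-type, beside 0% of all genes in both. Unadjusted p was under 0.05 for 3 members in knock-out (Eif1, Eif3g and Eif6, all genes 7.79%) and 1 in knock-in (Eef1akmt2, all genes 3.8%). DESeq2 also called 0 in both. For Eif1 the change in knock-out was lower than in wild-type by a log2 of -0.33 ± 0.13 (edgeR adjusted p 0.552), for Eif6 by -0.41 ± 0.15 (0.540) and for Eif3g by -0.40 ± 0.16 (0.569). Both tests share the wild-type libraries, and no difference passed the threshold after adjustment over all genes.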

How the data were processed

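RNA of sorted CD4 T cells was sequenced in 25 libraries. Per the labels' protocols, RNA was prepared with a miRNeasy kit and libraries with a SMARTer stranded total RNA Pico kit, and per the submitters' processing notes the build was mm10 and DESeq2 was used. The authors deposited raw counts per Ensembl gene. The aligner, counting tool and strand setting were not given in the labels or notes, and overlapping and antisense genes cannot be told apart. Symbols, positions and exon lengths came from GENCODE M21, which named 45143 of 46078 rows.

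Genes were kept by filterByExpr over the 6 groups (minimum count 10, minimum total 15), leaving 14703. TMM scaling was followed by the quasi-likelihood fit of edgeR 4.0.16 (R 4.3.3), in which every group of the 25 libraries had its own mean. The 10 comparisons were adjusted by Benjamini-Hochberg over all genes tested at 0.05, two-sided. Errors are SE for log2 changes. Groups came from the labels, and no pair of libraries of a group agreed within sampling noise. The fit was checked on simulated counts in 3 of the comparisons, with 200 genes changed that were drawn at random from all 14703. Of genes changed 1.5-fold, it recovered 50.7% between the stages of wild-type cells and 50.7% between those of knock-out cells. Between the knock-out and wild-type groups of day 7 it recovered 37.3%. In the same order the shares were 47.8%, 56.7% and 52.2% at 2-fold and 87.9%, 78.8% and 86.4% at 4-fold. These shares are over genes of every level. Most members varied less between libraries than the common coefficient of variation of 0.21, so the shares are not those for the members. A count of 0 called members still does not show that groups are alike. Alternatives were DESeq2 1.42.0, limma 3.58.1 voom with quality weights, RLE factors, no filter on low counts, a cutoff of 5 CPM in 4 or more libraries, fits of the compared groups alone, removal of mitochondrial, ribosomal RNA or haemoglobin genes, a block of 4 consecutive library numbers, each library left out and, added later, library totals alone.

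The members, the gene lists and the naming rule were chosen with earlier results of these data known. The rule names each called member, the 3 highest per kilobase in each role, members whose stages do not overlap in at least 2 genotypes, the paralog pairs and the members under the filter. Those outside it were named after their values were seen.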

Additional observations from a re-analysis of the deposited data

Results flagged for a closer look

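Over the 41 named members, 37 were examined in 6 groups of 4 or 5 libraries, and in 14 of these member and group pairs 1 library stood apart from the others by Dixon's criterion, which chance flags in about 1 of 20 groups. In wild-type cells these were Eef1d in naive replicate 1 (114.4 CPM, others 94.22 to 94.80), Eif2s3x in naive replicate 2 (64.05, others 72.23 to 73.47), Eif1ax in day 7 replicate 1 (30.77, others 24.69 to 25.91) and Eif4e2 in day 7 replicate 4 (69.44, others 74.33 to 75.87). In naive knock-out cells they were Eif3j2 in replicate 1 (1.965), Eif3a in replicate 3 (825.3, others 654.2 to 673.0) and Eif6 in replicate 3 (44.37, others 33.66 to 34.45). In knock-out cells at day 7 they were Eif2ak3 in replicate 3 (46.33), Eif3c in replicate 3 (222.4) and Eif2b4 in replicate 4 (17.38). In knock-in cells they were Eif4a2 in naive replicate 1 (371.0), Eif3k in naive replicate 2 (67.32), and Eif2b5 and Eif4b in day 7 replicate 3 (50.85 and 312.3 CPM). Knock-out day 7 replicate 3 holds 2 of these and was the deepest library.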

How the results depend on the processing

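Of the counts of called members, 190 alternative values stayed within 1.5 times the main count and 17 did not. Many of the 190 were 0 in both fits, and a step from 3 called to 2 counted as within. The tally is therefore no measure of stability. No member that was called in the main or the alternative fit changed sign. Signs of uncalled members did change: over the genotypes 41 members were above 0 in the main fit and 27 with library totals alone. Shares in parentheses are of all genes tested, for DESeq2 of those given an adjusted p. For wild-type day 7 against naive (3 called, 2.14%), DESeq2 gave 5 (3.68%), voom 6 (3.51%) and no filter 5 (3%). Leaving out each library gave 2 to 6, with 6 without wild-type day 7 replicate 2 (2.53%) and 5 without replicate 4 (3.19%). Where 2 were called the share ran from 0.95% to 1.55%. For knock-out (0, 0.408%) DESeq2 gave 3 (1.71%) and no filter 2 (1.81%). For knock-in (2, 2.02%) DESeq2 gave 5 (3.76%), voom 6 (4.9%), only the groups compared 4 (2.76%) and library totals alone 1 (2.15%). Leaving out each knock-in library gave 1 to 2, with 1 without naive replicate 2 (1.07%) or 4 (1.09%). Over the genotypes (13, 11.2%) library totals alone gave 6 (14%) and leaving out each library 12 to 13 (8.46% to 11.9%). Between knock-out and wild-type at day 7 (0, 0.0476%) DESeq2 gave 3 (0.847%) and no filter 2 (1.17%). Leaving out each library gave 0 to 1 there, with 1 without wild-type day 7 replicate 2 (0.0747%). The cause of these shifts was not tested. For single members, 39 alternative values newly passed the threshold and 34 no longer did. No paired analysis was run, because the labels state no pairing and give the groups no shared replicate numbers. Naive and day 7 libraries of a genotype often carry consecutive library numbers, and the labels do not say what that order means. With a block for every 4 library numbers in sequence, 2 members were called in wild-type (without Eef2, 1.13% of all genes). Wild-type day 7 replicate 5 was alone in its block, so that fit set this library aside as well. The blocked fit called 12 over the genotypes (without Eif2s2, 8.52%) and the same number as the unblocked fit in every other comparison. With 6024043 counts in the shallowest library, the 4 members under the filter and Eif4ebp3, at 0 in 3 libraries, were too low for a difference to be detectable.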
